A study of Mus musculus with 8 samples.

Results

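Osteoclast precursor cells that received PRDX1 and RANKL together were compared with cells that received neither protein. The comparison used the 2 PRDX1 + RANKL libraries and the 2 no PRDX1 + no RANKL libraries, 4 of the 8 libraries of the series, chosen by their labels. Of the 25124 genes in the deposited table, the 11700 with a mean FPKM (fragments per kilobase of transcript, scaled to the depth of the library) of at least 0.5 over the 8 libraries were tested. The cells were bone marrow-derived macrophages, grown out of femur and tibia marrow of mice with 3 days of M-CSF before treatment. The labels name C57BL/6 mice aged 6 to 8 weeks, whereas the cell culture methods of the study name male ICR mice aged 6 weeks. Every group, the control included, was kept on 30 ng/mL M-CSF. The combined group also received 100 ng/mL RANKL and 200 nM recombinant PRDX1 for 48 h, and the other 2 groups (2 libraries each) received only one of the proteins at the same dose and for the same time. The PRDX1 was a His-tagged protein made in E. coli, from which endotoxin was removed according to the study's methods. Nothing in the labels says that the 2 libraries of a group came from separate animals or cultures, so p-values here measure only the spread between these samples, which may be technical. Because whole cultures were sequenced, a lower value can mean fewer cells of a type or less RNA per cell, and these cannot be told apart.

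M-CSF keeps macrophages and osteoclast precursors alive. RANKL binds its receptor RANK on these cells and acts through NF-kB and AP-1 transcription factors to raise NFATc1, which then drives the genes of cell fusion, acid secretion and matrix digestion that make a bone-resorbing osteoclast. PRDX1 is a peroxidase of the cytosol which, outside the cell, can act as a danger signal through TLR4, the receptor that macrophages use to sense bacterial lipopolysaccharide and that switches on NF-kB targets and interferon-stimulated genes.

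The 4 libraries held between 26959539 and 41712970 reads on genes, as recovered from the FPKM values, and the combined libraries were in the upper part of that range, with 38010304 and 41712970. All 12 macrophage markers passed the filter, and their summed FPKM was 14076 to 14477 with both proteins against 16515 to 18291 in the control. Lyz2, the macrophage lysozyme, made up most of that sum. It stood at 14982 and 13253 FPKM in the control and at 11793 and 11358 FPKM with both proteins. Among the 12, 1 was higher and 5 were lower than the control with both proteins, Ms4a7, a membrane protein of macrophages, being the one that rose (67.5 and 60.5, then 166 and 165 FPKM). None of the 19 markers of B cells, mast cells and erythroid cells in the table passed the filter. Sums of B cell, T and NK cell, and mast cell markers were very low but also higher in the libraries that received PRDX1. The B cell markers summed to 0.654 to 1.015 FPKM in the control and 1.474 to 1.639 FPKM with both proteins. Erythroid markers did not show this. Markers of neutrophils and of stromal cells were low in every library but higher in the libraries that received PRDX1. The 11 neutrophil markers summed to 19.0 to 24.6 FPKM in the control and 43.6 to 48.1 FPKM with both proteins. The 12 stromal markers summed to 13.1 to 16.8 FPKM in the control and 25.7 to 30.1 FPKM with both proteins. Of 4 dendritic cell markers tested 2 were higher and 1 lower, and of 2 platelet markers 1 was lower (Pf4, 673 and 590, then 263 and 240 FPKM). The 1 endothelial marker tested was higher (Kdr, with a difference of 1.48). The 1 marker of T and NK cells tested had a limma adjusted p under 0.05 but a change under 1.5-fold, so it was not called. It was called by voom.

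In a principal component analysis of log2(FPKM + 1), PC1 held 69.3% of the variance and PC2 20.03%. The combined libraries had PC1 scores of 9.53 and 9.79, between the control (-26.5 and -26.2) and RANKL alone (43.5 and 44.2). Their PC2 scores of 17.7 and 18.4 were the highest of the 8 libraries, with PRDX1 alone at 11.9 and 12.3 and the control at -21.9 and -20.1. The 2 libraries of every group lay close together, and the combined cells sat apart from all 3 other groups.

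**Figure D1:**
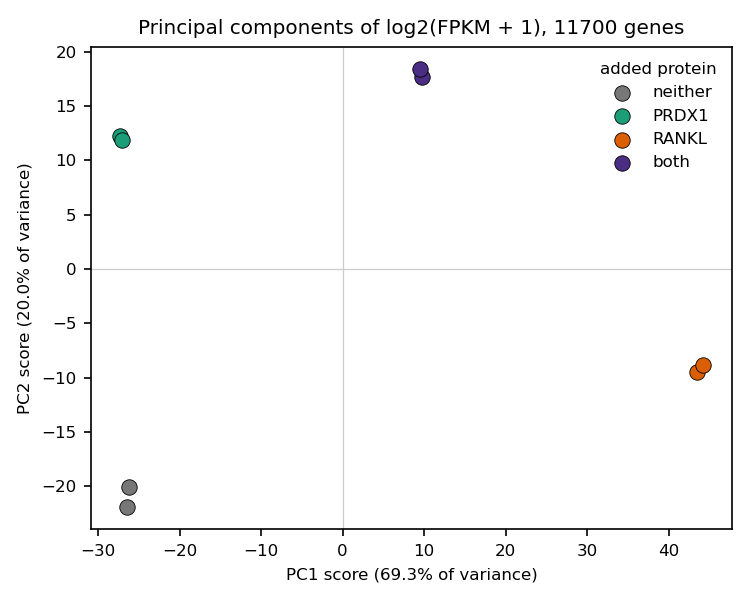
PC1 score (x axis) and PC2 score (y axis) of the 8 libraries from log2(FPKM + 1) of 11700 genes. Each point is 1 library and colors give the added protein. The PRDX1 + RANKL libraries (PC1 9.53 and 9.79) lie between the control and RANKL alone on PC1 and above all other libraries on PC2.

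Cells given both proteins had 877 genes higher (7.50% of the genes tested) and 625 genes lower (5.34%) than the control, by limma with Benjamini-Hochberg adjustment. A gene was called when its adjusted p-value was under 0.05 and its change was at least 1.5-fold on the log2(FPKM + 1) scale, which understates the change of genes with low FPKM. The median log2 fold change was 0.90 over the higher genes and -0.85 over the lower genes, against 0.03 over all genes tested. Changes over 4-fold were seen for 75 higher and 20 lower genes. Each called gene had both combined libraries on the same side of both control libraries. A call makes this likely, and the share over all genes was not counted, so it is no further support. The balance between the directions depended on scaling: 747 genes were higher and 737 lower under quantile normalization.

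**Figure D2:**
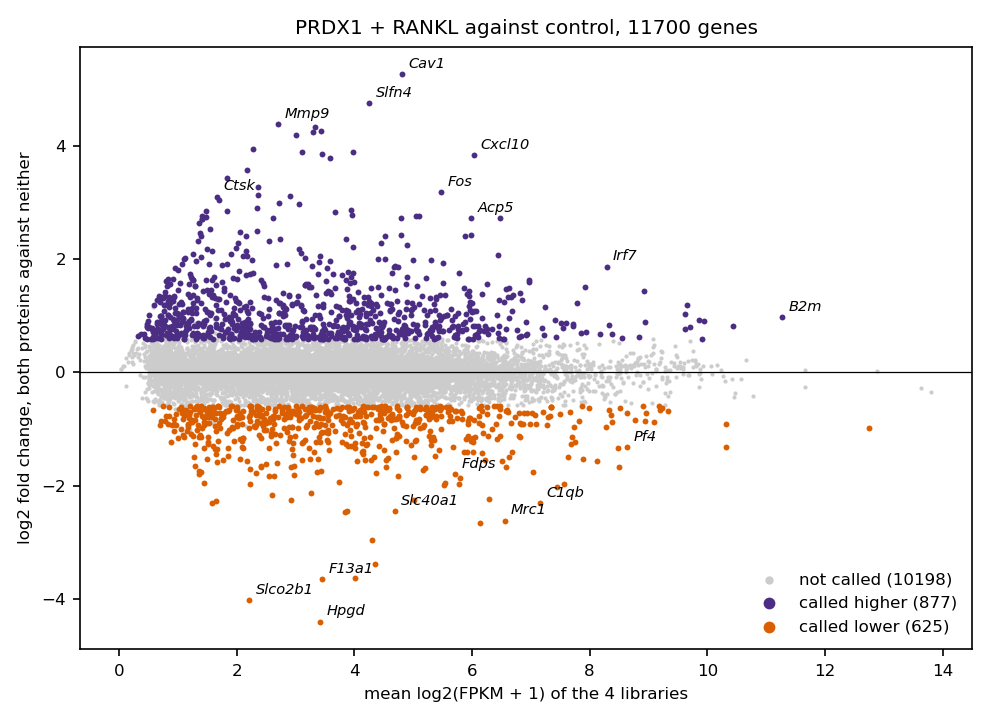
Log2 fold change of PRDX1 + RANKL against the control (y axis) by mean log2(FPKM + 1) of the 4 libraries (x axis), 1 point per gene. The 877 higher genes (purple) and 625 lower genes (orange) reach from Cav1 at 5.26 to Hpgd at -4.40.

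The same libraries were then placed against each single protein. Relative to RANKL alone the combined cells had 705 genes higher (6.03%) and 488 lower (4.17%), and relative to PRDX1 alone 529 higher (4.52%) and 466 lower (3.98%). These comparisons share the combined libraries, and the comparisons of each single protein with the control share the control libraries, so their values are given side by side and are not independent. Of the 877 genes above the control, 495 had a mean between those of the single proteins, 374 a mean above both and 8 a mean below both. Of these 877 genes, 126 were called below RANKL alone, 233 above it, and 404 above PRDX1 alone. Of the 625 genes below the control, 437 had a mean between the single proteins, 183 below both and 5 above both. Of these 625 genes, 146 were called above RANKL alone, 19 below it, and 299 below PRDX1 alone. Neither single protein was called different from the combined cells for 256 of the higher and 295 of the lower genes.

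Cav1, which encodes the caveola coat protein caveolin-1, had the largest increase on the log2(FPKM + 1) scale among the genes called. It was at 3.59 and 3.46 FPKM in the control, 174 and 171 with both proteins, 210 and 190 with RANKL alone and 20.2 and 22.2 with PRDX1 alone. Both combined libraries were far above the control and a little below both libraries of RANKL alone. The log2 fold change against the control was 5.26 (95% interval 5.12 to 5.40, adjusted p = 3.57e-11), and against RANKL alone the difference was -0.21 (-0.35 to -0.07), under the 1.5-fold threshold. Traf1, an adaptor of TNF receptors, went from 1.29 and 1.21 FPKM to 42.7 and 40.7 FPKM (log2 fold change 4.25). Fgr, a kinase of the Src family, went from 1.14 and 1.34 FPKM to 32.6 and 31.9 FPKM (3.89). Mefv, which encodes the inflammasome protein pyrin, was at 0.307 and 0.171 FPKM in the control and at 17.6 and 18.4 FPKM with both (3.94). These 3 genes had their high levels in the libraries that received RANKL, and were under 4 FPKM with PRDX1 alone. Slfn4, an interferon-inducible schlafen gene of myeloid cells, showed the other pattern. It was at 2.19 and 3.25 FPKM in the control, 99.4 and 96.9 with both proteins, 96.3 and 78.0 with PRDX1 alone, and 3.28 and 4.08 with RANKL alone. Its high values were those of the libraries that received PRDX1 (log2 fold change against the control 4.75, adjusted p = 4.63e-09), and against PRDX1 alone the difference was 0.18 (-0.13 to 0.49).

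The largest decrease on the log2(FPKM + 1) scale was that of Hpgd, the enzyme that inactivates prostaglandins. Hpgd was at 47.2 and 48.7 FPKM in the control, 10.9 and 11.3 with PRDX1 alone, 2.68 and 3.13 with RANKL alone and 1.25 and 1.38 with both proteins. The combined libraries were the lowest of the 8, with a log2 fold change of -4.40 against the control (-4.58 to -4.23, adjusted p = 2.28e-10) and -0.75 against RANKL alone (adjusted p = 3.81e-05). Slco2b1, an organic anion transporter, fell from 18.1 and 17.2 FPKM to 0.164 and 0.137 FPKM (log2 fold change -4.02), and by the ratio of mean FPKM its decrease was the larger (117-fold, against 36.4-fold for Hpgd). F13a1, the coagulation factor XIII chain of macrophages, fell from 43.4 and 32.7 FPKM to 2.19 and 1.98 FPKM (-3.65). Fcrls, a myeloid scavenger receptor, fell from 57.4 and 54.2 FPKM to 3.83 and 3.33 FPKM (-3.63). Gas6, the ligand of the TAM receptors that clear dead cells, fell from 175 and 176 FPKM to 26.4 and 27.8 FPKM (-2.65). All of these stood below the control in both combined libraries, but they were picked from calls whose 2 groups did not overlap.

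Several genes of bone resorption rose over the control with both proteins, and most of those were below RANKL alone. Of 18 genes of osteoclast resorption 17 were tested, and 8 were higher and 1 lower than the control with both proteins, with a median log2 fold change of 0.57. The same list had medians of 1.52 with RANKL alone and 0.31 with PRDX1 alone against those controls. Of the 8 higher genes, 7 were called below RANKL alone and 6 above PRDX1 alone. Ctsk, the collagen-degrading cathepsin K of osteoclasts, had 2 and 8 reads in the control (0.043 and 0.122 FPKM), 8.12 and 8.46 FPKM with both proteins, 169 and 167 with RANKL alone and 0.081 and 0.324 with PRDX1 alone. Its level with both was 4.93% of that with RANKL alone. Only the libraries with RANKL had Ctsk above 1 FPKM, and the combined libraries stood clear of the control (difference of log2(FPKM + 1) 3.10, 2.88 to 3.32, adjusted p = 8.07e-09) and of RANKL alone (-4.19, adjusted p = 4.08e-09). Acp5, the tartrate-resistant acid phosphatase stained as TRAP, was at 24.2 and 23.1 FPKM in the control, 158 and 166 with both, 1073 and 1137 with RANKL alone and 53.9 and 53.5 with PRDX1 alone. The combined level was 6.84-fold that of the control and 14.6% of that of RANKL alone, and the order of the 4 groups did not overlap. Mmp9, a gelatinase of osteoclasts, was at 0.321 and 0.538 FPKM in the control, 27.7 and 29.8 with both, and 294 and 345 with RANKL alone. It rose by a log2 fold change of 4.38 (adjusted p = 1.21e-09) and reached 8.996% of the level of RANKL alone.

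Mmp14 and Src came closer to the level of RANKL alone than Ctsk, Acp5 and Mmp9. Mmp14, a membrane-anchored collagenase, was at 1.02 and 0.771 FPKM in the control, 32.3 and 34.9 with both, and 69.3 and 75.8 with RANKL alone, so the combined level was 46.3% of that of RANKL alone. Src, the kinase that osteoclasts need for their ruffled border, was at 0.698 and 0.798 FPKM in the control, 14.4 and 14.0 with both, and 37.6 and 41.3 with RANKL alone (36.1%). Atp6v0d2, a proton pump subunit of osteoclasts, reached 27.3 and 25.5 FPKM with both from 6.96 and 7.02 in the control, close to the 24.5 and 21.0 of PRDX1 alone (difference 0.21, 0.03 to 0.39) and far below the 186 and 168 of RANKL alone. Car2, the carbonic anhydrase that supplies the protons, had 2 and 0 reads in the control and 3.24 and 2.16 FPKM with both, against 32.6 and 32.4 FPKM with RANKL alone. Itgb3, the beta chain of the osteoclast integrin, showed no detected gain: it was at 1.80 and 1.95 FPKM in the control and 1.53 and 1.58 with both (difference -0.17, -0.37 to 0.03), while RANKL alone gave 20.5 and 22.8. Calcr, the calcitonin receptor of mature osteoclasts, was below the filter, with 0 and 1 reads in the combined libraries, 0 in the control and 98 and 157 reads with RANKL alone. Ckb, the brain-type creatine kinase that osteoclasts also use, was the gene of the list that fell. It was at 309 and 328 FPKM in the control and at 127 and 137 with both, and lay below RANKL alone (312 and 363) and PRDX1 alone (242 and 241) as well. Among the 17 subunits of the V-ATPase, the proton pump of lysosomes and of the ruffled border, 1 was higher than the control, near the 7.50% over all genes tested, and the median was 0.04 with both proteins and 0.54 with RANKL alone.

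**Figure D3:**
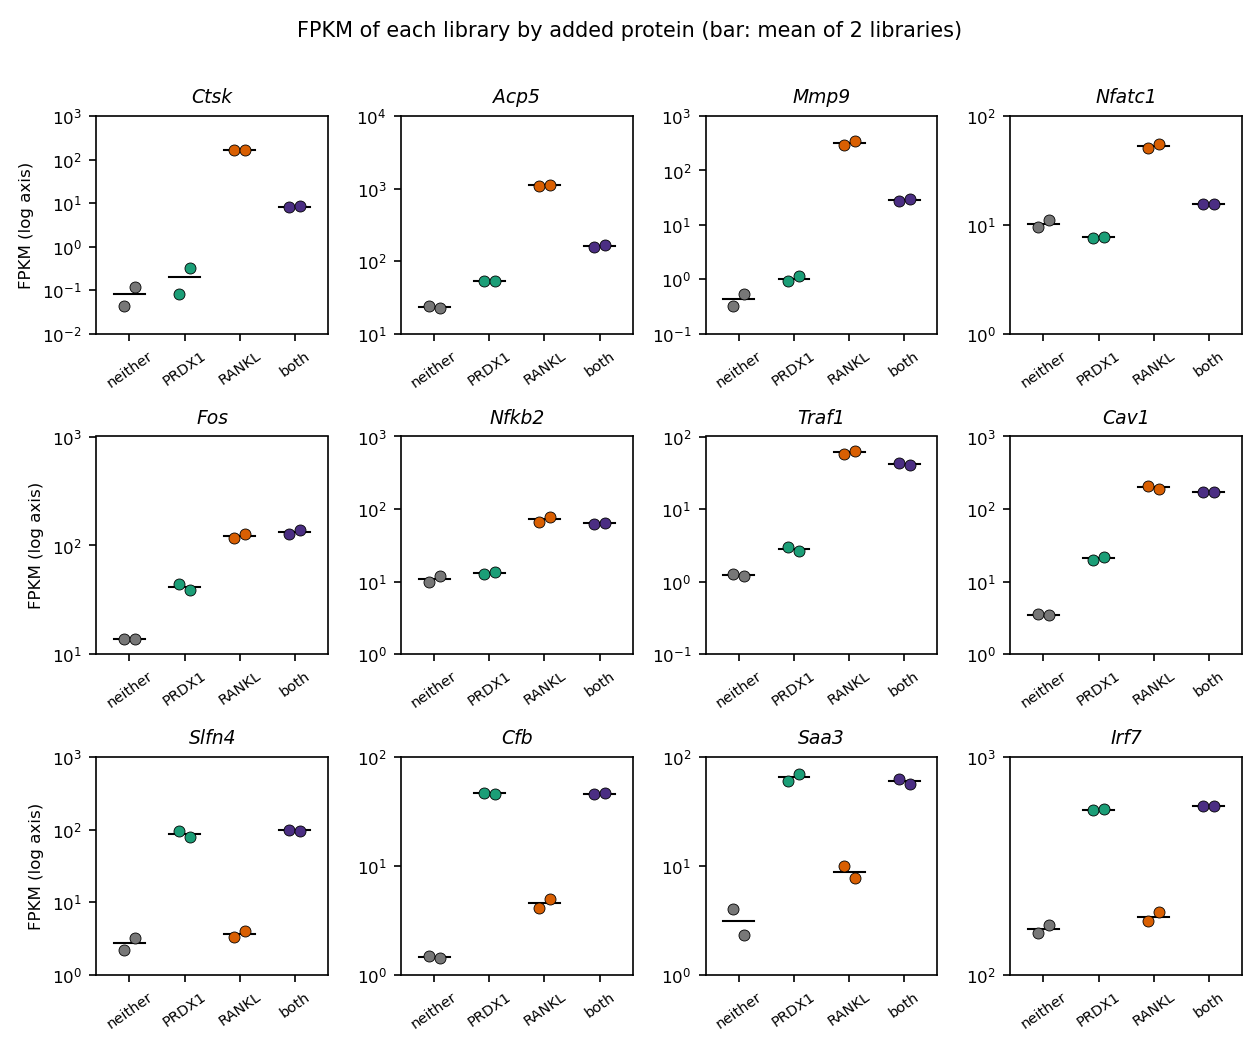
FPKM (log y axis) of 12 genes in each library by added protein, with a bar at the mean of 2 libraries. Osteoclast genes (Ctsk, Acp5, Mmp9, Nfatc1) are between the control and RANKL alone with both proteins, Fos, Nfkb2, Traf1 and Cav1 lie near RANKL alone, and Slfn4, Cfb, Saa3 and Irf7 lie near PRDX1 alone.

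Dcstamp and Ocstamp, which act in the fusion of precursors, rose over the control with both proteins. Dcstamp, a membrane protein that precursors need to fuse, was at 1.72 and 1.55 FPKM in the control, 7.96 and 7.89 with both, 47.2 and 41.4 with RANKL alone and 4.42 and 3.49 with PRDX1 alone. Its groups did not overlap, and the combined level was 17.9% of that of RANKL alone (log2 fold change 1.76 against the control, adjusted p = 4.17e-07, and -2.34 against RANKL alone). Ocstamp, its partner in fusion, was at 0.208 and 0.123 FPKM in the control, 4.16 and 3.73 with both, and 34.7 and 37.1 with RANKL alone. Of the 11 fusion genes, 5 were higher and 1 was lower than the control with both proteins, beside 7.50% and 5.34% over all genes. The list median was 0.49, beside 0.16 with RANKL alone and 0.09 with PRDX1 alone.

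The transcription factors upstream of these genes did not move as 1 block. Of 18 osteoclast transcription factors, 9 were higher and 0 lower than the control with both proteins (median 0.60, against 1.57 with RANKL alone and 0.21 with PRDX1 alone); 8 of the 9 were above PRDX1 alone, while against RANKL alone 1 was above, 3 were below and 5 were not called. Fos, the AP-1 factor induced early by RANK, was at 13.8 and 13.8 FPKM in the control, 128 and 139 with both, 117 and 127 with RANKL alone and 44.5 and 38.8 with PRDX1 alone. The combined libraries lay just above both libraries of RANKL alone (difference 0.13, -0.03 to 0.29, not called) and rose 9.69-fold over the control (log2 fold change 3.18, adjusted p = 1.01e-09). Junb, another AP-1 subunit, went from 24.7 and 24.1 FPKM to 132 and 136 FPKM. Nfatc1, the factor that drives osteoclast genes, was at 9.54 and 11.1 FPKM in the control, 15.6 and 15.7 with both, 50.3 and 55.4 with RANKL alone and 7.64 and 7.76 with PRDX1 alone. Its combined libraries lay above both control libraries without overlap, by 0.56 (0.39 to 0.73, adjusted p = 2.14e-04), just under the 1.5-fold threshold, and it passed the threshold with a pseudocount of 0.1 (0.60), with voom on recovered reads (0.61) and without no PRDX1 + no RANKL replicate 2 (0.66). Against RANKL alone it was lower by -1.69 (adjusted p = 1.30e-07), at 29.6% of that level. Jdp2, an AP-1 partner that acts with NFATc1, also stopped short, with 11.7 and 11.5 FPKM in the control, 34.2 and 35.3 with both and 158 and 173 with RANKL alone. Prdm1, which encodes the repressor Blimp1 that RANKL uses to silence inhibitors, was at 1.02 and 1.08 FPKM in the control, 1.60 and 1.81 with both, and 9.18 and 9.07 with RANKL alone.

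Among 12 repressors of the osteoclast fate, 3 were higher and 3 lower than the control with both proteins, beside 7.50% and 5.34% over all genes tested, with a median of -0.13 beside -0.85 for RANKL alone and 0.42 for PRDX1 alone. Irf8, the interferon regulatory factor that blocks NFATc1, was at 47.8 and 50.3 FPKM in the control, 23.9 and 25.4 with both, 7.77 and 7.72 with RANKL alone and 59.5 and 59.4 with PRDX1 alone. It fell with both proteins (log2 fold change -0.96, adjusted p = 4.30e-07) but remained above RANKL alone by 1.55. Id2, an inhibitor of helix-loop-helix factors, was at 52.7 and 58.6 FPKM in the control, 136 and 135 with both, 63.1 and 59.3 with RANKL alone and 215 and 193 with PRDX1 alone. Id2 and its relative Id3 (38.8 and 39.9 FPKM, then 96.8 and 93.0) rose with both proteins, with log2 fold changes of 1.27 and 1.25.

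Of 15 genes of RANK, M-CSF receptor and ITAM signaling, 3 were higher and 2 lower, beside 7.50% and 5.34% over all genes. Tnfrsf11a, which encodes RANK, was at 32.3 and 32.6 FPKM in the control, 49.5 and 49.6 with both, 59.4 and 58.0 with RANKL alone and 34.96 and 34.04 with PRDX1 alone. The gain of 0.60 (0.49 to 0.70, adjusted p = 4.42e-06) was near the threshold, and missed it when values were quantile normalized (0.57) or scaled to the upper quartile (0.58). Csf1r, the M-CSF receptor, fell from 503 and 514 FPKM to 301 and 317 FPKM (-0.72). Traf3, which restrains the noncanonical NF-kB pathway, rose from 6.81 and 6.19 FPKM to 18.4 and 18.9 FPKM, and its difference from RANKL alone was -0.04 (-0.20 to 0.12). Among 21 Toll-like receptors and adaptors, 2 were higher and 3 lower, beside 7.50% and 5.34% over all genes. Tlr4 was at 24.4 and 23.2 FPKM in the control and 20.6 and 19.4 with both (-0.24, -0.41 to -0.07, short of 1.5-fold), while Tlr2, a sensor of bacterial lipoproteins, was at 43.5 and 39.6 FPKM in the control and 70.9 and 69.2 with both. Tlr2 was between 39.6 and 45.6 FPKM in the 6 other libraries, below both combined libraries.

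Many genes of NF-kB and its feedback rose with both proteins, and most of those were not called against RANKL alone. Motifs for NF-kB, the interferon response, AP-1, the TATA box and the sterol response were looked for on both strands of promoters, which are the 250 bases before the start of the RefSeq transcript to 50 bases after it (mouse build GRCm38.p6, 8899 of the 11700 genes matched). The upstream 250 bases of Nfkb2 and Nfkbia, a subunit and an inhibitor whose transcripts rose in the combined cells, are shown 5′ to 3′. Only NF-kB and interferon response matches are in capitals, and matches of the other motifs are not marked.
Nfkb2 (chr19:46305680-46305929, plus strand): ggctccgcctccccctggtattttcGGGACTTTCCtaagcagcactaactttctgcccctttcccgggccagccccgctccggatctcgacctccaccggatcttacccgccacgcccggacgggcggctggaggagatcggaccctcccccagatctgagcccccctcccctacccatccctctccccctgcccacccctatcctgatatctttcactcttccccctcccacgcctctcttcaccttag
Nfkbia (chr12:55492648-55492897, minus strand): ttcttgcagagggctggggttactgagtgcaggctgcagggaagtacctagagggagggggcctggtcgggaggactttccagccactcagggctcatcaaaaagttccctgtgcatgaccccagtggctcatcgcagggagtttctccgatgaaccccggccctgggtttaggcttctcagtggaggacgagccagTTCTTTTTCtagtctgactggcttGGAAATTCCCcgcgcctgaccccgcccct
The Nfkb2 window holds 1 NF-kB match, 225 to 216 bases before the start site. The Nfkbia window holds 1 NF-kB match and 1 interferon response match (GAAANNGAA, read on either strand). An NF-kB match was found in 5 of the 7 promoters of NF-kB list genes that were called higher and had a promoter (71.4%), and in 7 of 11 promoters of the whole list (63.6%), called or not, against 442 of all 8899 promoters (4.97%) and 66 of the 640 promoters of all genes called higher (10.3%). Of 7 promoters of acute phase, complement and itaconate genes called higher, 0 held an NF-kB match. A match describes letters in the window and was not tested for binding.

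Of the 14 NF-kB subunits and feedback genes, 9 were higher and 0 lower than the control with both proteins, with a median log2 fold change of 1.20 beside 1.37 with RANKL alone and 0.34 with PRDX1 alone. Against RANKL alone 8 of the 9 were not called and 1 was above, and 7 were above PRDX1 alone. Nfkb2, the p100/p52 subunit of the noncanonical pathway, was at 9.93 and 12.1 FPKM in the control, 62.4 and 64.5 with both, 66.0 and 78.4 with RANKL alone and 12.6 and 13.5 with PRDX1 alone. Only the libraries with RANKL were high, and the combined libraries differed from RANKL alone by -0.18 (-0.40 to 0.04). Nfkbia, the inhibitor IkBa, was at 27.96 and 24.7 FPKM in the control, 145 and 145 with both, 179 and 184 with RANKL alone and 57.0 and 58.2 with PRDX1 alone. Its 4 groups were ordered without overlap, and the log2 fold change against the control was 2.42 (adjusted p = 1.33e-09). Nfkbie, another inhibitor of the family, rose by 2.35, and Tnip1, a partner of the deubiquitinase A20, rose by 1.87. The transcripts of the main canonical subunits moved less: Rela, which encodes p65, was at 24.9 and 25.8 FPKM in the control and 29.4 and 29.9 with both (0.22, 0.07 to 0.37), and Nfkb1 at 30.0 and 32.1 and at 36.6 and 37.7 (0.25, 0.12 to 0.38), neither reaching 1.5-fold.

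Most interferon and class I presentation genes rose with both proteins, and most of those were not called against PRDX1 alone. The upstream 250 bases of 3 genes that rose are shown in the same way: Cxcl10, a chemokine that was highest in the combined cells, Ifit1, a classical interferon-stimulated gene, and H2-K1, a class I histocompatibility gene.
Cxcl10 (chr5:92348890-92349139, minus strand): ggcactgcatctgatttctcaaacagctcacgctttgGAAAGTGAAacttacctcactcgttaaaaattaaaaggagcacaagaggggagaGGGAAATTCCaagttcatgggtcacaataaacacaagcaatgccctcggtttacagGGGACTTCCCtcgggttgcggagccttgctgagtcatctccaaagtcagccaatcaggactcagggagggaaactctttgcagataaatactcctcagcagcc
Ifit1 (chr19:34640639-34640888, plus strand): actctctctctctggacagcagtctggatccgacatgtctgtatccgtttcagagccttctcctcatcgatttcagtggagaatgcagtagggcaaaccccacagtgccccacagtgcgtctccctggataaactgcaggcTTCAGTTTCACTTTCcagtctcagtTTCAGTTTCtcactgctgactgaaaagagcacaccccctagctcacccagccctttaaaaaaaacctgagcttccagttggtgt
H2-K1 (chr17:34000334-34000583, minus strand): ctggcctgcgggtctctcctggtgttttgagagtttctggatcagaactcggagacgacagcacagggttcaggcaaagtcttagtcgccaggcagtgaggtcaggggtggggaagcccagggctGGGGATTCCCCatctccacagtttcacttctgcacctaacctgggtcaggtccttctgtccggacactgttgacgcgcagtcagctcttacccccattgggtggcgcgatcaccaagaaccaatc
The Cxcl10 window holds 1 interferon response match and 2 NF-kB matches, and also an AP-1 match that is left in lower case. The Ifit1 window holds 3 interferon response matches, of which the first and second overlap, and no NF-kB match. The H2-K1 window holds 2 overlapping NF-kB matches. The interferon response letters were in 17 of 24 promoters of interferon-stimulated genes called higher (70.8%), and in 20 of 29 promoters of the whole list (69%), called or not, against 671 of all 8899 promoters (7.54%). The AP-1 letters TGANTCA and the TATA box letters TATAAA were also in 6 of those 24 promoters each (25%), against 5.06% and 7.03% of all promoters. NF-kB matches were in 6 of 9 promoters of class I genes called higher (66.7%) and in 6 of 13 of that whole list (46.2%).

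Of 37 interferon-stimulated genes, 29 were higher and 0 lower than the control with both proteins. Their median log2 fold change was 0.84 with both proteins, 0.69 with PRDX1 alone and 0.00 with RANKL alone. Of the 29, 23 were called above RANKL alone, 3 above PRDX1 alone, and 26 were not called against PRDX1 alone. Irf7, a transcription factor that amplifies the interferon response, was at 156 and 170 FPKM in the control, 594 and 599 with both, 570 and 576 with PRDX1 alone and 176 and 194 with RANKL alone. The combined and PRDX1 libraries were high and the others low (log2 fold change 1.86, adjusted p = 6.01e-09, and 0.06, -0.07 to 0.18, against PRDX1 alone). Ifit1, an RNA-binding antiviral protein, was at 11.3 and 13.7 FPKM in the control, 49.2 and 48.1 with both, 28.4 and 30.1 with PRDX1 alone and 22.5 and 18.6 with RANKL alone. Its combined level was above each single protein. Ifnb1, which encodes interferon beta, was below the filter, with 0 to 2 reads in every library. Class I presentation behaved likewise, with 10 of 15 genes higher and 0 lower than the control (median 0.81) and all 10 above RANKL alone. H2-K1 was at 140 and 146 FPKM in the control and 404 and 412 with both (1.504), and B2m, the light chain of class I molecules, at 1805 and 1713 and at 3495 and 3423 (0.98). H2-Q7 rose by 2.86, although near-identical copies of the H2-Q genes can share reads. Of 9 class II presentation genes, 3 were higher and 1 lower, beside 7.50% and 5.34% over all genes.

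Acute phase, complement and itaconate genes included some of the largest gains. Of 17 such genes, 9 were higher and 4 lower than the control with both proteins, and 8 of the 9 were above RANKL alone. Cfb, complement factor B, was at 1.49 and 1.42 FPKM in the control, 45.5 and 46.7 with both, 46.7 and 46.2 with PRDX1 alone and 4.10 and 5.02 with RANKL alone. Its level with both overlapped that with PRDX1 alone (difference -0.01, -0.19 to 0.17) and was 31.7-fold that of the control (log2 fold change 4.26, adjusted p = 3.32e-10). Saa3, an acute phase protein of macrophages, was at 3.99 and 2.33 FPKM in the control, 62.8 and 56.8 with both, 60.8 and 69.9 with PRDX1 alone and 10.1 and 7.72 with RANKL alone. The combined values again overlapped PRDX1 alone (-0.12, -0.51 to 0.26) and were far above the control (3.90, adjusted p = 6.81e-08). Acod1, the enzyme that makes itaconate, was at 1.53 and 1.23 FPKM in the control, 14.8 and 14.8 with both, 9.49 and 10.4 with PRDX1 alone and 2.37 and 2.76 with RANKL alone. Its combined libraries exceeded both PRDX1 libraries without overlap, by 0.53 (0.32 to 0.74, adjusted p = 1.41e-03), under the 1.5-fold threshold, and it passed the threshold with voom on recovered reads (0.59) and without PRDX1 + no RANKL replicate 2 (0.59). The 4 genes that fell included all 3 chains of C1q, the starter of the classical complement pathway, with C1qb at 320 and 310 FPKM in the control and 64.7 and 61.1 with both.

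Beside these lists, the neutrophil genes S100a8 (5.15 and 3.15 FPKM in the control, 18.0 and 17.1 with both) and S100a9 also rose, by 1.87 and 1.53. Of the 7 neutrophil markers tested 3 were higher, Mpo being the other one, with 0.64, which was 0.53 under quantile normalization and 0.47 without PRDX1 + RANKL replicate 2. Of 6 stromal markers tested 3 were higher, with Col1a1 at 0.69, 0.54 without no PRDX1 + no RANKL replicate 1 and 0.49 without PRDX1 + RANKL replicate 2. With PRDX1 alone the neutrophil markers summed to 50 to 54.7 FPKM and the stromal markers to 25.8 to 26.3 FPKM, and with RANKL alone to 19.2 to 21.8 and 13.4 to 15.2 FPKM. The part of such cells in the acute phase, interferon and chemokine results was not tested.

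Chemokines split into 2 sets. Of 16, 8 were higher and 6 lower than the control with both proteins, and all 8 higher genes were above RANKL alone. Ccl5, an attractant of T cells and monocytes, was at 1.80 and 1.96 FPKM in the control, 40.4 and 41.1 with both, 38.9 and 39.3 with PRDX1 alone and 8.22 and 9.13 with RANKL alone (log2 fold change 3.86, and 0.06, -0.09 to 0.21, against PRDX1 alone). Cxcl3, an attractant of neutrophils, rose from 0.267 and 0.166 FPKM to 5.48 and 6.62 FPKM. The 6 lower genes were all below PRDX1 alone and 5 were above RANKL alone. Ccl4, an attractant of monocytes, was at 64.4 and 75.7 FPKM in the control, 15.8 and 12.2 with both, 1.74 and 3.31 with RANKL alone and 76.1 and 71.5 with PRDX1 alone. It fell by 2.25 on the log2 scale, part of the way to RANKL alone. Among 12 cytokines 3 were higher, beside 7.50% over all genes. Il1b, the cytokine IL-1 beta, had 2 and 3 reads in the control and 70 and 105 reads with both (difference 1.23). Il1rn, the antagonist of the IL-1 receptor, rose from 9.12 and 9.99 FPKM to 42.1 and 40.0 FPKM (1.99). Of 10 genes of costimulation and maturation, 5 were higher and 2 lower, beside 7.50% and 5.34% over all genes. Cd274, which encodes the checkpoint ligand PD-L1, rose from 3.45 and 3.46 FPKM to 16.7 and 17.4 FPKM, and Cd83, a maturation marker, fell from 6.50 and 7.02 FPKM to 1.72 and 1.53 FPKM.

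Many receptors of resting tissue macrophages fell in the combined cells. Of 20 scavenger and endocytic receptors, 2 were higher and 9 lower than the control (median -0.52, beside -1.23 with RANKL alone and 0.29 with PRDX1 alone). Of the 9, 6 were called above RANKL alone and 7 below PRDX1 alone. Mrc1, the mannose receptor, was at 248 and 216 FPKM in the control, 37.3 and 36.5 with both, 22.0 and 18.5 with RANKL alone and 104 and 110 with PRDX1 alone. Its groups did not overlap (log2 fold change -2.62, adjusted p = 8.95e-09). Cd163, the hemoglobin scavenger receptor, was at 5.69 and 5.60 FPKM in the control and 0.311 and 0.364 with both, overlapping RANKL alone at 0.242 and 0.330 (difference 0.06, -0.16 to 0.27). Stab1, a receptor that takes up modified proteins, fell from 168 and 170 FPKM to 50.3 and 55.3 FPKM. Fcgr1, the high-affinity IgG receptor, was at 112 and 113 FPKM in the control, 50.1 and 52.4 with both, 9.07 and 7.90 with RANKL alone and 163 and 161 with PRDX1 alone. Marco, a scavenger receptor induced by microbial products, went the other way, from 6.43 and 6.19 FPKM to 33.0 and 32.6 FPKM, with a difference from PRDX1 alone of -0.03 (-0.18 to 0.12). Slc40a1, the iron exporter ferroportin, was at 60.4 and 57.6 FPKM in the control, 10.1 and 9.95 with both, 1.15 and 1.20 with RANKL alone and 47.0 and 47.7 with PRDX1 alone (log2 fold change -2.45, adjusted p = 1.21e-09). It was the only one of 11 genes of iron handling that was called, beside 7.50% higher and 5.34% lower over all genes.

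Cholesterol synthesis genes fell with both proteins, and their medians were below 0 with each single protein as well. Of 23 genes, 19 were lower and 0 higher than the control in the combined cells, with log2 fold changes of the 19 from -1.80 to -0.61 and a median over the list of -0.93. The list medians were -0.84 with RANKL alone and -0.76 with PRDX1 alone. Against RANKL alone none of the 19 was called by limma, with 9 lower and 3 higher at an unadjusted p under 0.05 and 0 called by voom, and against PRDX1 alone 2 were lower. Fdps, which makes farnesyl pyrophosphate and is the target of bisphosphonate drugs, was at 94.6 and 98.7 FPKM in the control, 27.8 and 26.4 with both, 40.4 and 36.9 with RANKL alone and 40.0 and 38.9 with PRDX1 alone. The combined libraries were the lowest of the 8, by -1.80 against the control (adjusted p = 8.95e-09), -0.50 against RANKL alone and -0.53 against PRDX1 alone, the last 2 under 1.5-fold. The sterol response letters TCACNCCAC were in 1 of 12 promoters of the genes called lower (8.33%) and in 1 of 15 of the whole list (6.67%), against 91 of all 8899 promoters (1.02%). Insig1, a sterol-responsive retention protein, fell from 38.2 and 35.9 FPKM to 10.3 and 9.97 FPKM. Desaturases fell with them, Scd2 from 49.0 and 60.1 FPKM to 6.09 and 6.11 FPKM (-2.96) and Fads2 from 31.2 and 35.4 FPKM to 5.02 and 5.63 FPKM (-2.44). The entry Mir5114, which lies inside Scd2 on the same strand and can take its reads, fell by 3.38. Among 16 genes of cholesterol efflux and lipid handling, 3 were higher and 4 lower, beside 7.50% and 5.34% over all genes. Nr1h3, the sterol-sensing receptor LXR alpha, rose, with 2.37 and 1.58 FPKM in the control, 22.5 and 22.1 with both, 14.2 and 13.5 with RANKL alone and 7.52 and 7.12 with PRDX1 alone. It was highest in the combined libraries (2.98 against the control, adjusted p = 2.03e-08, 0.65 against RANKL alone and 1.49 against PRDX1 alone).

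The medians of the energy gene lists, which were raised with RANKL alone, were near 0 in the combined cells. None of 24 genes of the TCA cycle was called by limma, with a median of 0.11, beside 0.70 for RANKL alone and -0.15 for PRDX1 alone. By limma 13 of the 24 had an adjusted p under 0.05, but with a change under 1.5-fold. At an unadjusted p under 0.05, 12 were above and 5 below the control, and voom called 0. None of 39 respiratory chain genes was called either (median 0.04, RANKL alone 0.54), with 9 above and 7 below at an unadjusted p under 0.05 and 0 called by voom. Of the 39, 11 had a limma adjusted p under 0.05, again with a change under 1.5-fold. Mdh2, the mitochondrial malate dehydrogenase, was at 162 and 169 FPKM in the control, 185 and 190 with both, 300 and 329 with RANKL alone and 156 and 152 with PRDX1 alone. The gain over the control was 0.18 (0.06 to 0.29), and the combined libraries were below RANKL alone by -0.74 (adjusted p = 2.26e-06). Atp5b, a subunit of ATP synthase, was at 482 and 497 FPKM in the control and 533 and 528 with both (0.12, 0.03 to 0.20), against 796 and 807 with RANKL alone. Of 18 genes of glycolysis 1 was higher and 1 lower, near the shares over all genes (7.50% and 5.34%). Of 32 cell cycle genes 0 were higher and 1 was lower, beside 7.50% and 5.34% over all genes. The lower gene was Ccnd2, a cyclin of G1 phase, which fell from 13.2 and 11.7 FPKM to 3.21 and 3.29 FPKM. Among 22 antioxidant genes 2 were higher and 1 lower, near the shares over all genes (7.50% and 5.34%). Slc7a11, the cystine importer, rose from 0.832 and 0.875 FPKM to 7.56 and 7.42 FPKM. The cells' own Prdx1 transcript was at 1294 and 1221 FPKM in the control, 1232 and 1182 with both, 620 and 567 with RANKL alone and 1779 and 1770 with PRDX1 alone. With both proteins it differed from the control by -0.06 (-0.17 to 0.05), between the lower level of RANKL alone and the higher level of PRDX1 alone.

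**Figure D4:**
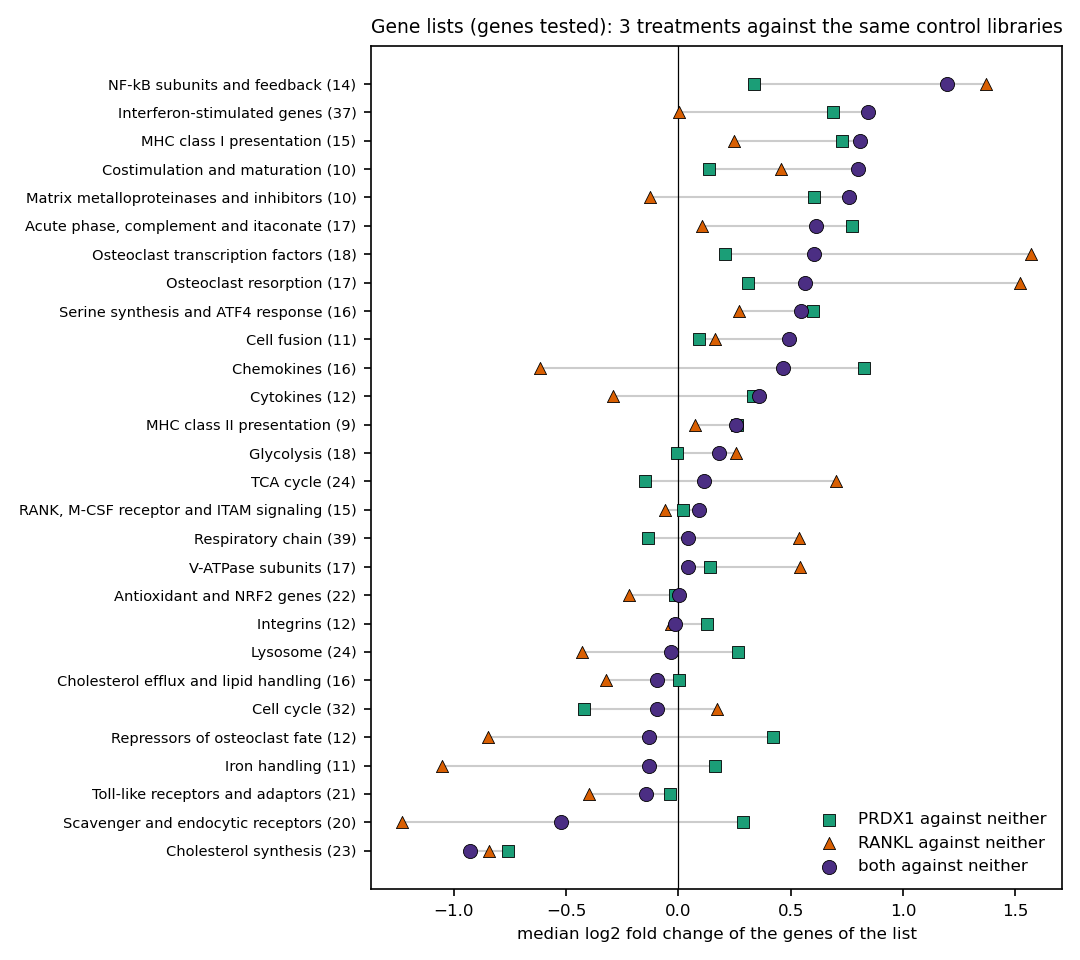
Median log2 fold change (x axis) of 28 gene lists (y axis, number of genes tested in brackets) for PRDX1 alone, RANKL alone and both, each against the same 2 control libraries. The resorption list lies at 0.57 with both and 1.52 with RANKL alone, NF-kB feedback at 1.20 and 1.37, and cholesterol synthesis at -0.93 and -0.84.

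A small set of genes went beyond every other group. With both proteins 39 genes (0.333%) were higher and 5 (0.0427%) lower than in each of the 3 other groups. Cxcl10, an interferon-induced attractant of T cells, was at 13.3 and 20.1 FPKM in the control, 14.9 and 17.7 with PRDX1 alone, 117 and 99.0 with RANKL alone and 244 and 250 with both. PRDX1 alone overlapped the control, RANKL alone was intermediate and the combined libraries stood above all, by 1.19 over RANKL alone (0.85 to 1.54, adjusted p = 1.76e-04) and 3.84 over the control. C3, the central complement protein, was at 1.26 and 1.24 FPKM in the control, 4.91 and 5.06 with PRDX1 alone, 23.1 and 24.97 with RANKL alone and 42.3 and 46.7 with both. Its groups were ordered without overlap, with a log2 fold change of 0.86 over RANKL alone (adjusted p = 9.80e-06). Ass1, which makes argininosuccinate in arginine synthesis, was at 11.4 and 12.2 FPKM in the control, 34.3 and 33.5 with PRDX1 alone, 39.1 and 45.4 with RANKL alone and 83.1 and 87.7 with both. The entry Gm5424 overlaps Ass1 on the same strand and shares its reads.

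H2-M2, a nonclassical class I gene, had 2 and 2 reads in the control and 1.81 and 2.09 FPKM with PRDX1 alone, 0.900 and 1.36 with RANKL alone and 5.94 and 5.72 with both. Serpinb2, an inhibitor of plasminogen activators, was at 0.207 and 0.329 FPKM in the control and 3.50 and 2.94 with both, with every other library under 1 FPKM. Ifitm6, of the interferon-induced transmembrane family, was at 5.97 and 6.11 FPKM in the control, 8.73 and 8.54 with PRDX1 alone, 8.80 and 9.27 with RANKL alone and 18.7 and 16.4 with both. In these 3 genes both combined libraries were above all 6 others. Of the 5 genes lower than in every other group, Hpgd and Ckb were given above. Arsb, a lysosomal sulfatase, was at 106 and 109 FPKM in the control, 56.7 and 59.2 with PRDX1 alone, 42.4 and 46.8 with RANKL alone and 26.6 and 26.9 with both. Its groups fell in steps without overlap (log2 fold change -1.96 against the control and -0.72 against RANKL alone). Cdkn2b, the cell cycle inhibitor p15, was at 9.02 and 7.68 FPKM in the control, 3.21 and 4.18 with PRDX1 alone, 2.53 and 4.12 with RANKL alone and 1.47 and 1.97 with both. Its difference from RANKL alone was -0.65 (adjusted p = 1.34e-02) and was not called without no PRDX1 + RANKL replicate 2 (-0.38) or without PRDX1 + RANKL replicate 1 (-0.52), nor with no filter on low values. Hacd1, an enzyme of fatty acid elongation, was at 8.96 and 8.31 FPKM in the control, 9.59 and 7.77 with PRDX1 alone, 10.2 and 9.79 with RANKL alone and 5.40 and 4.67 with both. Both combined libraries were below the 6 others, by -0.68 against PRDX1 alone, and -0.54 and not called without PRDX1 + no RANKL replicate 1.

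**Figure D5:**
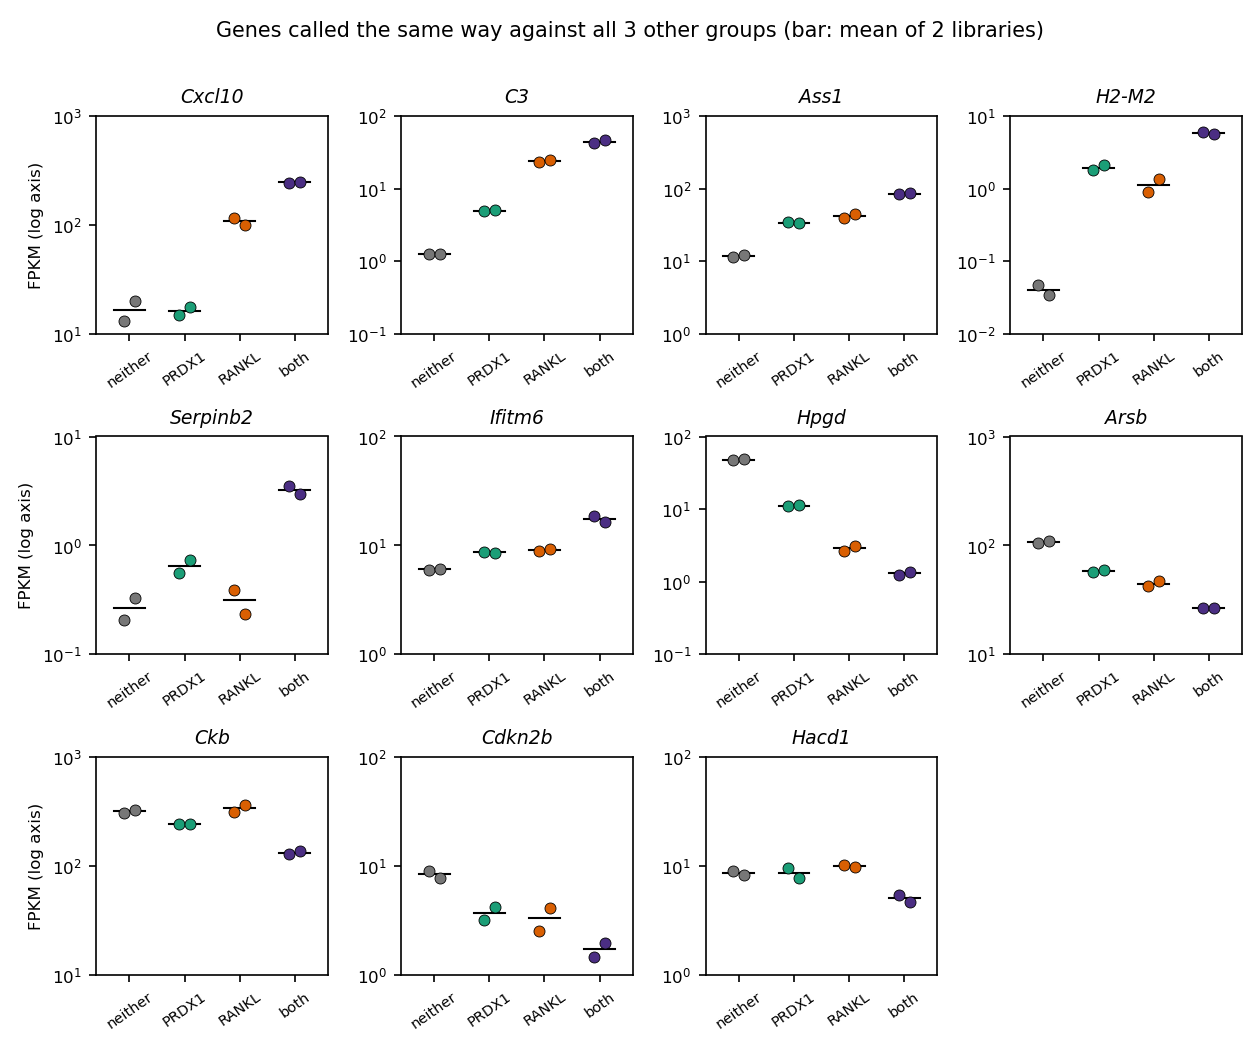
FPKM (log y axis) in each library by added protein for 11 genes called the same way against all 3 other groups, with a bar at the mean of 2 libraries. In the first 6 panels (Cxcl10 to Ifitm6) both combined libraries are above the 6 others, and in the last 5 (Hpgd to Hacd1) both are below.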

How the data were processed

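RNA-seq values of 8 libraries of osteoclast precursor cells, 2 in each of 4 groups, were used. The submitters' processing notes name HISAT2, HOMER, DESeq2 and the build mm10, with no versions or settings. Per the file headers, the authors used HOMER to count exon reads of mm10 transcripts without regard to strand, condensed transcripts to 1 per gene, and deposited FPKM. Overlapping genes can therefore share reads. Transcript length times FPKM came out as whole reads (within 0.1 read) for 100% of the genes checked, which gave reads on genes of 24542579 to 41712970 per library. Read counts of 3 or fewer were treated as the floor, which covers counting error only. The table held 0 other columns of per-sample values.

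The 11700 genes whose FPKM averaged 0.5 or more were fitted on the log2(FPKM + 1) scale by limma 3.58.1 (R 4.3.3), with all 4 groups in 1 model, an intensity trend and 4 residual degrees of freedom. The two-sided p-values were adjusted by the Benjamini-Hochberg method, calls needed an adjusted value under 0.05 and a fold of 1.5 or more, and intervals are 95% intervals of the fit. In a single gene, an exact permutation of 2 libraries against 2 cannot go below 0.333. The steps were tested on simulated data. Replicates differed beyond the sampling noise of reads (chi-square per degree of freedom 4.71 to 9.58) and were kept separate.

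The comparison, the 38 gene lists (10 of them cell type markers) and the tests were chosen with earlier results of these data known. Genes named were those the study names and the 12 largest increases and 12 largest decreases, taken among calls whose 2 groups did not overlap. Also named were up to 4 called members and the most abundant member of each list. Up to 6 genes each way beyond all 3 other groups were named, as were the 5 largest changes each way of each single protein. Any member of the resorption, transcription factor and repressor lists could be named. The promoters shown and the motifs were chosen after values were seen; sequences are from RefSeq (GRCm38.p6), and a match of start sites within 100 bases was required. Alternatives were another pseudocount, filters, quantile and upper quartile scaling, 2-group fits, no trend, a replicate block, voom on recovered reads, and each library left out in turn. Some members of the lists are not reported here by name.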

Additional observations from a re-analysis of the deposited data

How the results depend on the processing

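The count of genes above and below the control with both proteins (877 and 625) stayed within 1.5 times under all 17 alternatives. The largest counts were 1176 higher with voom on recovered reads and 817 lower with a pseudocount of 0.1. Without each library in turn, 846 to 912 genes were higher and 627 to 658 lower than the control. The number higher than PRDX1 alone moved from 529 to 794 with voom. The number lower than all 3 other groups moved from 5 to 15 with a pseudocount of 0.1 and to 14 with voom. Gene lists were less stable: of 527 list medians under the alternatives 74 moved by more than the replicate spread, most of all the acute phase list, from 0.61 to 2.35 with voom, 1.80 with a pseudocount of 0.1 and 1.56 at a mean FPKM of at least 1, and the neutrophil markers, from 0.49 to 1.53 at that filter. The cause was not tested. Medians of 3 lists, of at most 0.033 in size (antioxidant, integrin and lysosome genes) changed sign, and 27 of 1054 list counts, in 9 lists, moved by over 1.5 times, by at most 3 genes. Deviations of same-numbered libraries from their group means correlated by 0.0085 to 0.0965, under 0.1 in every pair of groups, so the numbers were not taken as pairs. The replicate block gave 877 higher and 625 lower genes, and 38 in place of 39 genes higher than all 3 other groups, and changed no call of the named genes. The difference of Cfb from PRDX1 alone (-0.01) changed sign to 0.0058 with voom, and ranged from -0.0291 to 0.0083 with a library left out in turn, the highest without PRDX1 + RANKL replicate 1. Against the control, 141 of the 149 named genes kept their call under every alternative, 5 lost it under at least 1, 3 gained one and 0 changed direction. With 2 libraries a group, differences near 1.5-fold (Nfatc1, Snx10, Prdm1, Tnfrsf11a, Map3k14, Gusb) rest on the setting or on 1 library.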

Other observations

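Of 10 matrix metalloproteinases and inhibitors, 5 were higher and 0 lower than the control with both proteins, Mmp9 and Mmp14 of the resorption list among them. Mmp12, the macrophage elastase, was at 70.7 and 70.9 FPKM in the control, 219 and 214 with both, 298 and 287 with PRDX1 alone and 40.8 and 33.4 with RANKL alone (log2 fold change against the control 1.60, limma adjusted p = 1.22e-07). Mmp13, a collagenase, was at 3.06 and 3.08 FPKM in the control, 7.37 and 6.95 with both, 23.3 and 18.7 with PRDX1 alone and 0.330 and 0.228 with RANKL alone. In both genes the combined libraries lay between the single proteins, which had moved apart from the control in opposite directions. Of 12 integrins, 3 were higher and 2 lower, beside 7.50% and 5.34% over all genes. Itga5, the fibronectin receptor chain, rose from 26.2 and 29.7 FPKM to 71.9 and 74.7 FPKM. Itga6, a laminin receptor chain, fell from 64.2 and 65.2 FPKM to 18.8 and 18.9 FPKM.

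Of 16 genes of serine synthesis and the ATF4 response, 8 were higher and 0 lower than the control with both proteins (median 0.55). Trib3, a pseudokinase induced by ATF4, was at 2.84 and 3.35 FPKM in the control, 8.92 and 8.84 with both, 9.20 and 9.90 with PRDX1 alone and 2.49 and 2.40 with RANKL alone. The combined libraries were close to PRDX1 alone (difference -0.09, -0.28 to 0.09) and above RANKL alone by 1.52. Asns, asparagine synthetase, was at 26.5 and 25.4 FPKM in the control, 57.3 and 54.7 with both and 52.8 and 54.0 with RANKL alone. Of 24 lysosome genes, 2 were higher and 2 lower, near the shares over all genes (7.50% and 5.34%). Ctsl, the lysosomal protease cathepsin L, was at 558 and 543 FPKM in the control, 1151 and 1109 with both, 1529 and 1472 with PRDX1 alone and 466 and 425 with RANKL alone.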
